A study of Mus musculus with 4 samples.

Results

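Expression of 7 genes whose products cut proteins in the epidermis, or that restrain such cutting, was examined in cultured primary keratinocytes of the mouse, the main cells of that tissue. The 7 were 4 proteases and 3 protease inhibitors, each matched exactly by gene symbol to a transcript cluster in the authors' tables and read in all 4 arrays, out of 22206 clusters on the array. Cells of male mice that were wild type (WT) or of a line labelled HMGB1 KO (KO) were cultured in EpiLife medium and were left untreated or given recombinant interleukin-4 (IL-4), a cytokine of type 2 immune responses, at 100 ng/ml for 12 hours. The series' design text calls the mutant mice K5-HMGB1. How the allele was made, the age of the mice and whether animals were pooled are not given in the labels or design text. There was 1 array for each of the 4 groups. No value below therefore has a replicate error, no p-value is given, and precision is limited by how few arrays there are.

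The outer epidermis is a layer of dead, cross-linked cells that are held together by modified desmosomes. Proteases made by the upper living layers mature structural proteins such as profilaggrin and later cut the desmosomes so that cells can be shed, while secreted and intracellular inhibitors keep this cutting in check. In human skin, loss of the inhibitor SPINK5 frees kallikrein proteases and causes a severe barrier disease.

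Of the 7 genes, Klk5, St14 and Tmprss11b encode serine proteases and Asprv1 encodes an aspartic protease. Cst6, Serpinb12 and Wfdc12 encode inhibitors of different families. In the annotation of GRCm38, the assembly also named mm10, the protein-coding gene Klk5 (cluster TC0700000778.mm.2) spans positions 43834157 to 43851181 of chromosome 7. St14 (TC0900001978.mm.2) spans 31088590 to 31131811 of chromosome 9, and Tmprss11b (TC0500002685.mm.2) spans 86659522 to 86676298 of chromosome 5. Asprv1 (TC0600000995.mm.2) lies at 86628174 to 86629710 of chromosome 6. Cst6 (TC1900000959.mm.2) lies at 5344705 to 5349574 of chromosome 19, Serpinb12 (TC0100001025.mm.2) at 106934449 to 106957080 of chromosome 1, and Wfdc12 (TC0200005106.mm.2) at 164189231 to 164190558 of chromosome 2. The 7 genes thus lie on 7 chromosomes.

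Values are the deposited log2 expression values from RMA, a method that corrects background, makes arrays alike and summarises probes. A difference was counted as a rise or a fall where it was at least 2-fold and the highest of the 4 values was at or above 5.33, the median of all values, which kept 11456 clusters and all 7 genes. A value is called dim where it lies under 9.21, which 95% of the values of 5222 negative control rows did. From 23.1% to 27.7% of those rows were 2-fold apart between 2 arrays, so passing 2-fold means little where values are dim. Some deposited values, up to 19.9, exceed what a 16-bit scanner can give, 16, and sizes above it are uncertain as well. Across the clusters above the filter, the robust spread of a difference of 2 arrays was 0.38 on the log2 scale, taken from how far the IL-4 differences of WT and KO disagreed. That spread leaves out whatever the dishes of a genotype have in common. Hmgb1 itself stood at 14.71 and 14.17 in WT, untreated and with IL-4, against 7.97 and 7.60 in KO. Of the other cell types' listed markers, the fibroblast genes Vim and Sparc were the 2 of 8 with a symbol in the tables, and log2 of their summed linear level was 11.8 and 10.9 in WT, untreated and with IL-4, and 12.7 and 12.8 in KO. The 4 of 6 melanocyte markers with a symbol summed to 13.1 and 12.1 in WT and to 13.1 and 13.6 in KO, the 2 of 4 endothelial markers to between 5.18 and 5.68, and none of 7 immune markers had a symbol. The part of these levels in the results below was not tested. Of 9 keratinocyte markers 1 had a symbol, the integrin chain Itgb4, and it lay between 14.96 and 16.59 on the 4 arrays.

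The 250 bases upstream of the annotated transcription start are shown for the 4 genes whose values differed most in size or in direction between cultures or genotypes, or whose start carried a searched motif. They come from the RefSeq table of GRCm38.p6, which held 5 of the 7 genes. St14 and Cst6 were not among them. Klk5 is read on the plus strand from chr7:43842019-43842268, Tmprss11b on the minus strand from chr5:86676299-86676548, Serpinb12 on the plus strand from chr1:106934199-106934448 and Wfdc12 on the minus strand from chr2:164190559-164190808. The Klk5 window lies inside the annotated gene span, before the start that the table uses. Each is given 5′ to 3′, and capitals mark a motif match.
Klk5: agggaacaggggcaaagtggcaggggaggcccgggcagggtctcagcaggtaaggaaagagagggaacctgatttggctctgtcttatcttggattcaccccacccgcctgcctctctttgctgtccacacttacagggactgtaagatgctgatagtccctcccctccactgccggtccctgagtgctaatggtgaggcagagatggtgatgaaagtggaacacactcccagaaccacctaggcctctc
Tmprss11b: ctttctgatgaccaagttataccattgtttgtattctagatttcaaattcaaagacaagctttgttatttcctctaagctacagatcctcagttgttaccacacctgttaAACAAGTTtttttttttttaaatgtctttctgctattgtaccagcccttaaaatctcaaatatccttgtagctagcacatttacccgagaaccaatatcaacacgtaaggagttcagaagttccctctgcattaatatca
Serpinb12: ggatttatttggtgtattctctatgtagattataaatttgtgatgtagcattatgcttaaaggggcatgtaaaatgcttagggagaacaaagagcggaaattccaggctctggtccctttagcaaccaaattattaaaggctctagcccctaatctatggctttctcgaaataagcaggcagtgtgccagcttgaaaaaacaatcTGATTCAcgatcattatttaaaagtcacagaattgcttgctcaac
Wfdc12: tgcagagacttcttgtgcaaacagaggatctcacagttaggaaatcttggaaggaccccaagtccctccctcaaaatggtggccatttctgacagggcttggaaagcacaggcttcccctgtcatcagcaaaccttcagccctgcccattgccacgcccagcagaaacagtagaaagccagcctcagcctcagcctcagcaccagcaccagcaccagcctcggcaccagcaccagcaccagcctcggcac
Motif words for 3 kinds of factor were searched on both strands of the 300 bases from 250 before to 50 after each start. They were TTCNNNNGAA for STAT factors, which act below the IL-4 receptor, TGANTCA for AP-1, and AACNNGTT for Grainyhead-like factors, which act in epidermal differentiation. The Tmprss11b window held 1 match to the Grainyhead-like word, AACAAGTT, starting 140 bases before the start. The word AACNNGTT is found in 4.20% of 32851 such windows. The first of 2 Serpinb12 windows held 1 match to the AP-1 word, TGATTCA, starting 45 bases before the start. The word TGANTCA is found in 7.81% of windows. The other 4 windows, those of Klk5, Asprv1 and Wfdc12 and the second of Serpinb12, held none of the words, and the STAT word is in 6.95% of all windows. A match is only a match of letters.

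**Figure D1:**
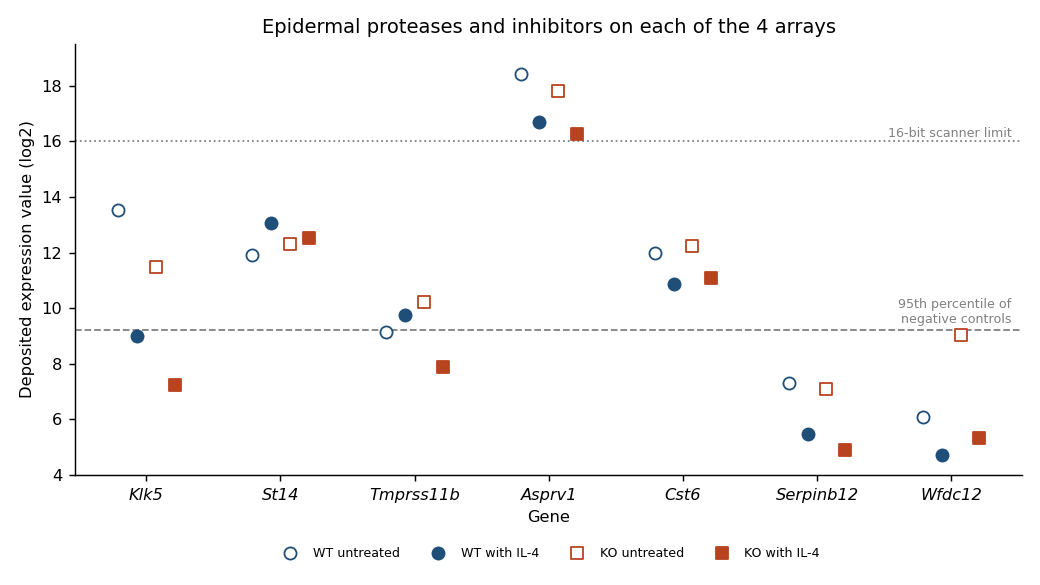
Deposited log2 expression value (vertical axis) of each of the 7 genes (horizontal axis) on the 4 arrays. Circles are WT and squares KO, open symbols are untreated and filled symbols are with IL-4, and each symbol is 1 array. Asprv1 lies above 16 on all 4 arrays, St14 and Cst6 lie between 10.88 and 13.06, and Serpinb12 and Wfdc12 lie below the 95th percentile of negative controls (dashed) on all 4.

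Klk5 is a secreted kallikrein-related protease that, in human skin, cuts desmosomal proteins and activates other kallikreins. Without IL-4 its log2 value was 13.55 in WT and 11.48 in KO. With IL-4 it was 8.99 in WT and 7.25 in KO. Both untreated arrays were above both IL-4 arrays, and each KO array was below the WT array of the same treatment. Klk5 fell with IL-4 in both genotypes, with log2 differences of -4.55 in WT and -4.23 in KO, which are 23.5-fold and 18.8-fold. KO was 4.17-fold below WT untreated and 3.34-fold below it with IL-4, log2 differences of -2.06 and -1.74. Among the 11456 clusters its IL-4 difference was the 56th lowest in WT and the 57th lowest in KO, and its genotype difference was the 31st lowest untreated and the 68th lowest with IL-4. Of the 7 genes, Klk5 alone passed the threshold in all 4 comparisons of 2 arrays. It was also the only one in both of the authors' lists, so passing in 2 of the 4 was set by how it was found. Both IL-4 values were dim, so the sizes of both falls and of the genotype difference with IL-4 are uncertain.

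St14 encodes matriptase, a membrane-anchored serine protease whose loss in mice disturbs profilaggrin processing. It measured 11.92 (WT) and 12.32 (KO) on the log2 scale without IL-4, and 13.06 and 12.53 with it. All 4 values were well above the dim range, and WT with IL-4 was the highest. St14 rose with IL-4 by 1.13 in WT, which is 2.19-fold, and its difference in KO was 0.21. St14 has a symbol only through the authors' list for the WT difference, so its WT rise was set by how it was found. The genotypes differed by less than 2-fold, with KO minus WT at 0.40 in untreated cultures and at -0.53 after IL-4. The 2 KO values lay within the robust spread of 0.38 of each other.

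Tmprss11b encodes another membrane-anchored serine protease of the same broad class. In WT its log2 value was 9.16 untreated and 9.75 after IL-4, and in KO it was 10.22 untreated and 7.90 after IL-4. The order of treatments was therefore opposite in the genotypes. The IL-4 difference was 0.60 in WT and -2.32 in KO, where it fell 5.01-fold. KO was 2.09-fold above WT untreated (1.07) and 3.62-fold below it with IL-4 (-1.85). The KO response minus the WT response was -2.92, the 4th lowest of 11456 clusters. Tmprss11b has a symbol only through the authors' list for KO against WT with IL-4. That difference of -1.85 is part of the -2.92, so this rank was partly set by how the gene was found. The values in untreated WT and in KO with IL-4 were dim, and the other 2 lay close above the dim limit.

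Asprv1 encodes a retroviral-like aspartic protease of the granular layer that cuts profilaggrin in mice. Untreated, it reached log2 values of 18.41 in WT and 17.81 in KO, and with IL-4 16.68 and 16.25. These were the highest values among the 7 genes on every array, and at least 99.1% of clusters on an array were lower. Asprv1 fell with IL-4 in both genotypes, with differences of -1.73 in WT and -1.56 in KO, which are 3.31-fold and 2.94-fold. KO minus WT stayed under 2-fold, at -0.60 in untreated cultures and -0.43 after IL-4. All 4 values exceed 16, so these sizes are uncertain.

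Cst6 encodes cystatin E/M, an inhibitor of cathepsin L and legumain, and its loss in mice causes a scaling skin disease. The untreated log2 values were 11.97 in WT and 12.23 in KO, and those with IL-4 were 10.88 and 11.08. Both untreated values were above both IL-4 values, and none was dim. Cst6 fell with IL-4 by 2.14-fold in WT and 2.21-fold in KO, log2 differences of -1.10 and -1.15. Its genotype differences, 0.25 without and 0.21 with the cytokine, were both inside the robust spread. The KO response minus the WT response was -0.05, the smallest in size of the 7.

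Serpinb12 encodes an intracellular serpin that inhibits trypsin-like proteases. On the log2 scale it stood at 7.32 in WT and 7.08 in KO without IL-4, and at 5.46 and 4.88 with it. Both untreated values were above both IL-4 values. It fell with IL-4 by 3.63-fold in WT and 4.60-fold in KO, log2 differences of -1.86 and -2.20. The genotypes differed by less than 2-fold, at -0.24 without and -0.58 with the cytokine. All 4 values were dim, and between 16.2% and 56.2% of negative control rows on the same array lay above them.

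Wfdc12 encodes a small secreted protein of the WAP family, which holds inhibitors of serine proteases and antibacterial proteins. WT had log2 values of 6.08 untreated and 4.71 after IL-4, and KO had 9.02 untreated and 5.34 after IL-4. Untreated KO stood apart from the other 3 arrays, and 4.90% of negative control rows on that array lay above it, against 33.4% in untreated WT. Wfdc12 fell with IL-4 in both genotypes, with differences of -1.37 in WT and -3.68 in KO. Untreated KO exceeded untreated WT by 2.94, which is 7.66-fold and the highest genotype difference of all 11456 clusters, and the difference with IL-4 was 0.63. The KO response minus the WT response was -2.31, the 22nd lowest. All 4 values were dim.

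**Figure D2:**
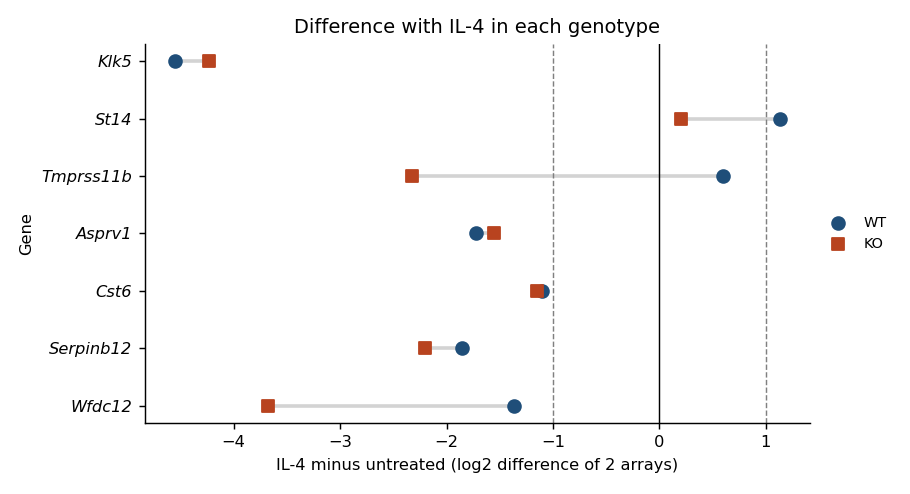
IL-4 minus untreated as a log2 difference of 2 arrays (horizontal axis) for each gene (vertical axis) in WT (circles) and KO (squares). Dashed lines mark 2-fold. Klk5 lies at -4.55 and -4.23, and Tmprss11b lies on opposite sides of 0, at 0.60 in WT and -2.32 in KO.

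The comparison of IL-4 with untreated cultures asks how the cytokine bears on these genes, first in WT. In WT 5 of the 7 genes fell and 1 rose, where 20.3% of 11456 clusters passed the threshold, 9.39% downwards and 10.9% upwards. Symbols exist only for clusters that the authors listed as differing about 2-fold, and 6 of the 7 were listed for this WT difference, so that count was set by how the genes could be found. In KO, which shares no array with WT, 6 of the 7 fell and none rose, where 18.6% of clusters passed, 9.51% downwards and 9.12% upwards. Of these 6, Tmprss11b was named only through the authors' list for KO against WT with IL-4, whose KO array enters its fall in KO too. All 5 genes that fell in WT also fell in KO. Of the 1049 clusters with 1 symbol that fell in WT, 66.5% fell in KO, and they were not matched to the 5 genes for size of fall. The median difference of the 7 was -1.37 in WT and -2.20 in KO, against 0.09 and 0.07 over all clusters tested. Fewer cells of a type and less RNA per cell cannot be told apart in such cultures.

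The genotype comparison asks what differs in the KO line. Untreated, 3 of the 7 genes passed the threshold, with Tmprss11b and Wfdc12 higher in KO and Klk5 lower, where 4.46% of clusters passed, 1.34% upwards and 3.12% downwards. With IL-4, 2 of the 7 passed, Klk5 and Tmprss11b, both lower in KO, where 5.47% of clusters passed, 1.61% upwards and 3.86% downwards. Those 2 were the genes listed by the authors for this very difference. The 2 genotype comparisons share no array with each other, and Klk5 was lower in KO in both. Klk5 was listed for its fall in WT as well, and the untreated WT array of that fall enters KO minus WT untreated too. The medians of the 7 were 0.25 untreated and -0.53 with IL-4, against -0.01 and -0.02 over all clusters tested. When the responses were subtracted, 2 of 7 genes, Tmprss11b and Wfdc12, differed at least 2-fold, both more negative in KO, where 10.2% of clusters did, 5.81% in that direction and 4.42% in the other. Tmprss11b rests on dim values on 2 of its 4 arrays and Wfdc12 on all 4. The difference for which the authors listed Tmprss11b, KO against WT with IL-4, is also part of its difference of responses. This difference of responses uses the same 4 values as the comparisons above, and it was not tested.

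**Figure D3:**
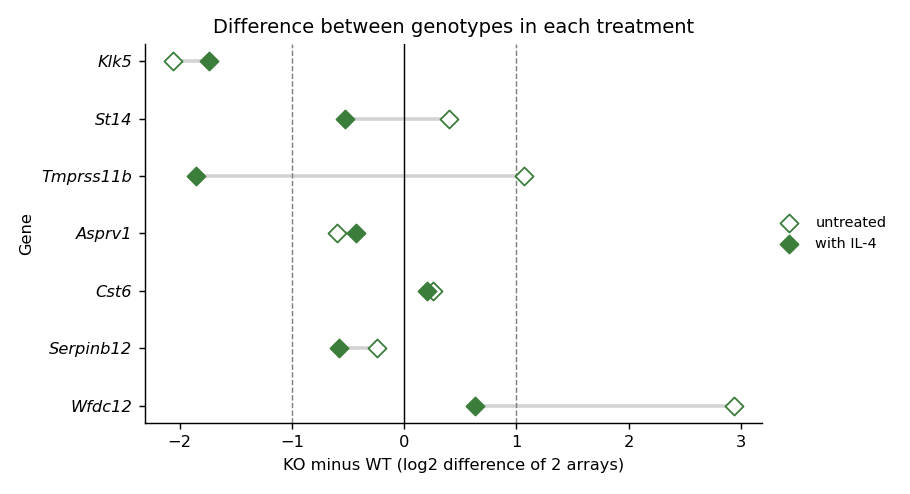
KO minus WT as a log2 difference of 2 arrays (horizontal axis) for each gene (vertical axis), untreated (open) and with IL-4 (filled). Dashed lines mark 2-fold. Klk5 is below -1 in both treatments, Wfdc12 lies at 2.94 untreated and 0.63 with IL-4, and Tmprss11b changes side, from 1.07 to -1.85.

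Other genes of the same system were taken from a list of 93 by role, and 52 of them had a symbol in the tables. Counts below stand beside 9.39% of all clusters that fell and 10.9% that rose with IL-4 in WT, and 9.51% and 9.12% in KO. The authors' list for the WT difference gave the symbols of 14 of 15 serine proteases, all 5 other proteases, 17 of 18 inhibitors and all 14 substrates and targets, so the WT counts were set by how the genes could be named. Of 15 listed serine proteases with a symbol, 10 fell with IL-4 in WT and 3 rose, and in KO 10 fell and 2 rose. Tmprss11g, a relative of Tmprss11b, fell with differences of -5.00 in WT and -6.10 in KO. The kallikreins Klk11 (-4.15), Klk13 (-3.99) and Klk9 (-3.85) followed in WT, and the membrane proteases Tmprss4 (-3.91) and Tmprss13 (-2.80) followed in KO. Tmprss2 rose by 1.80 in WT and 1.55 in KO, and Prss22 by 1.44 and 1.81. Prss8, the prostasin that matriptase activates, fell with differences of -3.01 in WT and -2.44 in KO, while St14 rose in WT. Prss8 and, below, Spink5 are named for their roles, outside the naming rule and with their values known. Across the other proteases with a symbol, 4 of 5 fell in WT and 2 of 5 in KO. They included caspase-14, Casp14 (-3.58 in WT and -3.72 in KO), which takes part in filaggrin breakdown, and bleomycin hydrolase, Blmh (-2.57 and -2.26). The lysosomal cathepsin Ctsz rose by 2.74 in WT and 2.91 in KO. Tmprss2 and Klk13 were dim on all 4 arrays, Ctsz on 3 and Prss22 on 1. With IL-4, Tmprss11g, Klk11 and Tmprss4 were dim in both genotypes and Prss8 in KO, so the sizes of their falls are uncertain.

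Of 18 listed inhibitors with a symbol, 14 fell with IL-4 in WT and 3 rose, and in KO 13 fell and 1 rose. The lowest were Serpinb10 (-5.05 in WT and -5.10 in KO), Serpinb11 (-4.56 and -4.30), Serpinb6c (-4.10 and -4.04) and the WAP protein gene Wfdc5 (-4.97 and -4.03). Serpinb9b rose by 1.81 in WT and by 3.45 in KO, and it was dim on 3 arrays. With IL-4, Serpinb10, Serpinb11 and Wfdc5 were dim in both genotypes and Serpinb6c in KO. Spink5, whose product LEKTI inhibits Klk5, had log2 values of 17.55 and 15.49 in WT and 17.41 and 15.28 in KO, untreated and with IL-4, and it fell with differences of -2.05 and -2.13. Its KO minus WT differences were -0.14 and -0.21, beside -2.06 and -1.74 for Klk5, and both untreated values exceed 16.

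Of 14 listed substrates and targets with a symbol, 13 fell with IL-4 in both WT and KO. Krt1, a keratin of the layers above the basal one, had differences of -9.14 in WT and -9.36 in KO, and Dsg1a, a desmosomal cadherin, had -6.26 and -6.61. The filaggrin relatives Hrnr (-6.90) and Flg2 (-6.30) were among the lowest in WT. With IL-4, Krt1 and Flg2 were dim in both genotypes. F2rl1, the protease-activated receptor that kallikreins and matriptase can switch on, went the other way and rose by 2.03 in WT, while its difference in KO was 0.80. The KO response minus the WT response was -1.23 for F2rl1 and -0.93 for St14. Both genes were listed by the authors for their WT rise, which is part of these values.

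Over the whole list of 52 genes, 41 fell and 8 rose in WT, with a median of -2.97. In KO 38 fell and 4 rose, with a median of -2.46. Since 50 of the 52 were listed by the authors for the WT difference, the WT count says little, and the median of all clusters tested was 0.09 in WT and 0.07 in KO. Of the 41 that fell in WT, 38 fell in KO, which is 92.7% beside the 66.5% of named clusters that fell in WT. These sets were not matched for size of fall, and at a 3-fold threshold 38 of the list still fell in WT. Of the 8 that rose in WT, 4 rose in KO, beside 52.9%. The 3 that fell in WT and did not pass in KO were Ctsc, Ctsb and Spink7, chosen for mention after their values were seen.

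**Figure D4:**
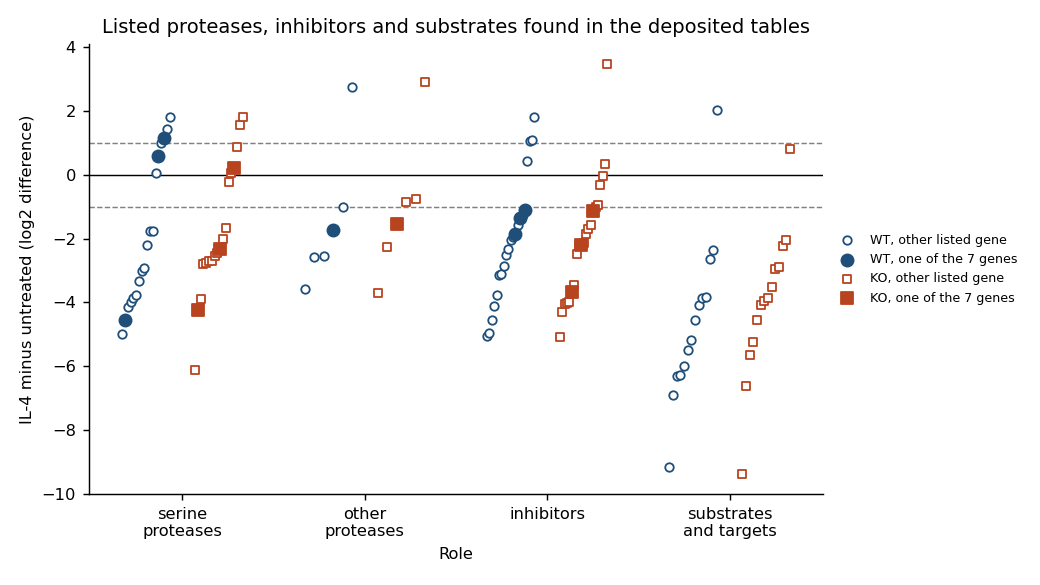
IL-4 minus untreated as a log2 difference (vertical axis) for listed genes with a symbol in the deposited tables, by role (horizontal axis), in WT (circles) and KO (squares). Filled symbols are the 7 genes, points are spread sideways in order of value, and dashed lines mark 2-fold. Most points lie below -1 in both genotypes, and Tmprss11b and St14 are filled points near or above 0 in WT.

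Between genotypes the list moved less, as did all clusters. Since 50 of the 52 were listed by the authors for the WT IL-4 difference, that contrast was partly set by naming. Untreated, 12 of the 52 were at least 2-fold lower in KO and 2 higher, where 3.12% and 1.34% of all clusters were. With IL-4, 5 were lower and 5 higher, where 3.86% and 1.61% of all clusters were. All 10 of these were in the authors' list for this very difference, so that count was set by how the genes could be named. The medians were -0.47 untreated and -0.16 with IL-4. Of 15 serine proteases 14 had a lower value in untreated KO, 6 of them at least 2-fold, with a median of -0.68, against -0.01 over all clusters. Most were named through the WT untreated array, which enters this difference too. Of the single-symbol clusters in the authors' table of the WT IL-4 difference, 10.2% were at least 2-fold lower in untreated KO. The 4 lowest were Klk13 (-1.61), Prss22 (-1.51), Klk10 (-1.26) and Tmprss11f (-1.17). Of these, Klk13 (6.87), Prss22 (7.78) and Tmprss11f (8.08) were dim in untreated KO. With IL-4 the lowest were Klk6 (-1.50), Klk10 (-1.26), Tmprss11g (-1.15) and Prss22 (-1.13). Among inhibitors Spink12 was lower in KO in both treatments (-1.79 and -1.92), and Serpinb9 was higher in both (1.35 and 1.26), all on dim values. Serpinb9b was 3.99-fold higher in KO with IL-4, at log2 values of 9.96 against 7.96. Among substrates, Krt10 was higher in KO in both treatments (1.97 and 1.90), Flg2 (-1.97) and Lor (-1.53) were lower untreated, and Hrnr (1.83) and Lor (1.05) were higher with IL-4. With IL-4, Krt10 (6.80 in WT and 8.70 in KO) and Lor (4.71 and 5.76) were dim in both genotypes. In untreated KO, Flg2 (8.60) and Lor (8.66) were dim, so the sizes of these differences are uncertain.

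The protein-coding genes within 200 kb of each of the 7 were examined, a choice made with values known. Of 20 such genes around Klk5, 7 had a symbol in the tables and all 7 were kallikreins on its lower-coordinate side. With IL-4, 6 of the 7 were at least 2-fold lower in WT and 5 in KO, where 9.39% and 9.51% of clusters fell. The authors had listed those 6 for the WT difference, so the WT count was set by how the genes could be named. Klk12, one of the 6, was under the level filter on every array. The nearest, Klk6, 2.13 kb away, fell with differences of -1.75 in WT and -2.77 in KO. Klk7, which like Klk5 cuts desmosomal proteins in human skin, had -2.20 and -1.67. Klk10, 48.7 kb away, was the exception, with log2 values of 12.79 and 12.84 in WT and of 11.53 and 11.58 in KO, untreated and with IL-4. Its IL-4 difference was 0.05 in both genotypes, and KO minus WT was -1.26 in both treatments. Of the 7, Klk10 alone was not in the authors' list for the WT IL-4 difference. It was named through their list for KO against WT with IL-4, so its place as the exception was set by naming. Kallikreins without a symbol could not be read. Klk5 had larger falls with IL-4 than each of these 7 in both genotypes. The order of sizes is uncertain. With IL-4, Klk5, Klk11 and Klk13 were dim in both genotypes, and the untreated values of Klk6 and Klk7 exceed 16. Kallikrein genes are related in sequence, and how far their probes cross-hybridise was not tested.

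**Figure D5:**
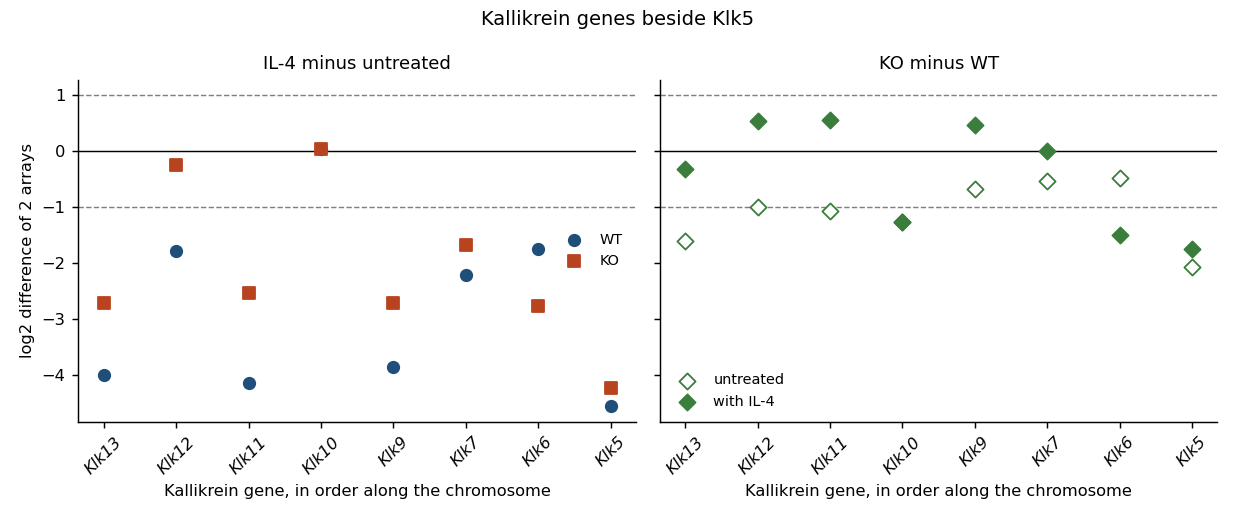
log2 differences of 2 arrays (vertical axis) for Klk5 and the 7 nearby kallikrein genes with a symbol in the tables, in chromosomal order (horizontal axis). The left panel shows IL-4 minus untreated in WT (circles) and KO (squares), and the right panel KO minus WT untreated (open) and with IL-4 (filled). Klk5 is lowest in the left panel. Klk10, named only through the authors' list for KO against WT with IL-4, stays at 0.05 there. It lies at -1.26 on the right in both treatments.

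Around Tmprss11b, 2 of 5 neighbours had a symbol, both of its own family. Tmprss11f, 27.1 kb away, had IL-4 differences of -2.92 in WT and -2.03 in KO, and Tmprss11g, 141 kb away, of -5.00 and -6.10. Both fell in WT, where Tmprss11b was at 0.60. Around Wfdc12, 2 of 16 neighbours had a symbol. Tomm34 rose by 1.02 in WT and had 0.55 in KO. Wfdc5, 6.49 kb away, fell in both genotypes and had KO minus WT differences of -0.40 untreated and 0.54 with IL-4, where Wfdc12 had 2.94 and 0.63. Around Serpinb12, 3 of 7 neighbours had a symbol, and all 3 were serpins that fell with IL-4 in both genotypes. They were Serpinb5 (-1.26 in WT and just past 2-fold in KO), Serpinb3a (-3.13 and -1.85) and Serpinb3b (-3.77 and -3.97). Around St14, 4 of 6 neighbours had a symbol, and 3 of these passed the level filter. The 3, Adamts15, Zbtb44 and Aplp2, rose with the cytokine in WT and 2 of them in KO, where 10.9% and 9.12% of clusters rose. The nearest, the unrelated gene Zbtb44, 12.7 kb away, had 1.06 in WT and 0.45 in KO. Around Cst6, 3 of 20 had a symbol, of which Ovol1 fell, with -3.25 in WT and -3.71 in KO. The other 2 rose in WT, AI837181 by 1.04 and Ctsw by 2.24, and their differences in KO were 0.92 and 0.69. Asprv1 had 8 neighbours and none with a symbol. Of the neighbours named here, Adamts15, Ctsw, Tomm34, Serpinb3a and Serpinb3b were dim on every array. AI837181 was dim on all but WT with IL-4, and Zbtb44 in untreated WT. With IL-4, Ovol1, Wfdc5, Tmprss11f and Tmprss11g were dim in both genotypes. A neighbour has a symbol only where the authors listed it for a 2-fold difference, so these counts cannot give the share of neighbours that changed.

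The 7 genes did not share 1 profile. Likeness was measured as the distance between the 4 log2 values of a pair, each gene centred on its own mean, over 4 arrays. The closest pair were Asprv1 and Serpinb12, at 0.48, and the farthest were Klk5 and St14, at 5.42. Asprv1 exceeds 16 and Serpinb12 is dim on all 4 arrays, so the distance of the closest pair is uncertain. Against the other 2567 named clusters above the level filter, the nearest to Klk5 were Slc5a1 (0.35) and Creb3l1 (0.54). Those nearest to Tmprss11b were Pthlh (0.24) and Ifitm2 (0.33), of which Ifitm2 had log2 values of 12.56, 13.13, 13.22 and 11.26 in WT untreated, WT with IL-4, KO untreated and KO with IL-4. Exph5 (0.11) was among the nearest to Asprv1. Asap1 and Aldh7a1 were nearest to St14 (both 0.07), Atp5l (0.03) and Mtmr1 (0.06) to Cst6, and Ces2g (0.08) and Ccr9 (0.12) to Serpinb12. Wfdc12 had the most distant nearest genes of the 7, Apoe (0.88) and Il20ra (0.94). Apoe had log2 values of 11.33 and 10.28 in WT and 13.67 and 11.16 in KO, untreated and with IL-4, none of them dim. Il20ra, Pthlh, Exph5 and Ccr9 were dim on every array. Slc5a1 and Creb3l1 were dim on all but untreated WT, and Mtmr1 was dim with IL-4 in both genotypes. Likeness over 4 arrays is a description only.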

How the data were processed

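RNA from cultured keratinocytes of 4 groups, 1 sample each, was hybridised to 4 Affymetrix Clariom S Mouse arrays, each from 100 ng of RNA per the labels' protocols. The deposited log2 values come from RMA in Affymetrix Expression Console 1.4, per the submitters' processing notes. The authors also deposited 2 comparison tables with a signed fold change, used here as a score, annotated on na36 of mm10 per the file headers. They list 2610 and 898 clusters. Of these, 3059 had 1 symbol, and 19147 clusters could be counted but not named. Differences of log2 values were computed with Python 3.11.15 and pandas 2.3.3. The level filter, the 2-fold threshold and limma 3.58.1 normalizations are described where used. The calling code was tested on simulated data. The 7 genes and the other lists were chosen with earlier results of these data known. The naming rule took all 7 genes, up to 4 rises and 4 falls per role and comparison among listed genes that passed, and the 2 nearest profiles per gene. One of the nearest profiles is not reported here. Genes named for a role or a position are marked as such. Promoter windows are from RefSeq. Alternatives were 3-fold and 1.5-fold thresholds, no filter, a filter at the 95th percentile of negative controls, 3 rescalings and the authors' own table values.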

Additional observations from a re-analysis of the deposited data

Results flagged for a closer look

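Tmprss11b was singled out because its IL-4 differences had opposite directions in the genotypes, 0.60 in WT and -2.32 in KO, and because its KO minus WT differences had opposite directions in the treatments, 1.07 untreated and -1.85 with IL-4. Both come to a KO response minus WT response of -2.92. The -1.85 with IL-4 is the difference for which the authors listed this gene, so the -2.92 was partly set by how the gene was found. St14 was singled out because its genotype difference, KO minus WT, was 0.40 without IL-4 and -0.53 with it, a KO response minus WT response of -0.93. The authors listed St14 only for its WT rise of 1.13, which is part of the -0.93, so this too was partly set by how it was found. Neither difference of responses was tested, since each group had 1 array.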

How the results depend on the processing

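No paired analysis was possible because each group had 1 array and the labels carry no replicate numbers, and leaving out a replicate was not possible for the same reason. Quantile normalization, cyclic loess and centring each array on its median left the number of the 7 genes that passed the threshold as it was in all 5 comparisons, and no difference of the 7 moved by more than 0.15 on the log2 scale under these or in the authors' table. Cyclic loess lowered the median IL-4 difference of all clusters tested by 0.10 in WT and 0.08 in KO. At a 3-fold threshold, 3 in place of 6 of the 7 genes passed for IL-4 in WT. Of the 52 other listed genes, 6 in place of 14 then passed between untreated genotypes, 4 in place of 10 between genotypes with IL-4, and 7 in place of 15 for the difference of responses. At 1.5-fold the untreated and IL-4 genotype counts of the list were 25 and 18. The balance of the list with IL-4, 5 lower and 5 higher in KO, became 13 lower and 5 higher at 1.5-fold and 1 lower and 3 higher at 3-fold. With the filter at the 95th percentile of negative controls, 9 listed genes passed between untreated genotypes, and 1 of the 7, Tmprss11b, in place of 2 passed for the difference of responses, since Wfdc12 is under that level on all 4 arrays. The other 62 recomputed counts stayed within 1.5 times of those reported. Signal over background limits Serpinb12 and Wfdc12 on all arrays, Klk5 with IL-4, and Tmprss11b in untreated WT and in KO with IL-4.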
